A study of Mus musculus with 5 samples.

Results

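Interferon-high neutrophils were 1902 of the 26406 cell barcodes in 3 single-cell gene expression libraries of sorted mouse neutrophils. A cell was counted among them when it met 6 conditions. It had at least 200 detected genes and under 10% mitochondrial transcripts. The calprotectin genes S100a8 and S100a9 made up at least 2% of its UMIs (unique molecular identifiers, each standing for 1 captured transcript). The granule genes Camp, Ltf and Ngp of maturing neutrophils made up under 3%. The interferon-stimulated genes Ifit1, Ifit3, Rsad2, Cmpk2 and Oasl1 together had at least 4 UMIs, and 1 named hashtag held at least 80% of its hashtag counts with 20 counts or more. Of the selected cells, 617 were from the naive library, 934 from the AT3 library and 351 from the AT3-gcsf library. The 20952 cells that met every condition but the interferon one (5550, 5873 and 9529) are called the other neutrophils below. The cells were thus chosen by their measured transcripts of these genes, so the level of the 5 interferon genes is given as a description, and with 1 library per condition no test was made of any difference.

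All mice were female, wild type and C57BL/6J. The groups are naive mice, mice that bore AT3 tumours (AT3 is a mouse mammary carcinoma line) and mice that bore AT3-gcsf tumours, a name that the labels do not expand. Per the labels, neutrophils were sorted from bone marrow, peripheral blood and lung, tagged with hashtag antibodies and loaded together, with 3 tagged populations in a lane: MHTO3, MHTO4 and MHTO5 in naive, MHTO7, MHTO8 and MHTO10 in AT3, and MHTO3, MHTO4 and MHTO5 in AT3-gcsf. Which tag marks which tissue is not in the labels, so no tissue was assigned, and a tag number used in 2 libraries is not taken to mark the same tissue. The sources used here do not give the age of the mice, how many were pooled or how long tumours grew. Each condition was a single lane of the capture chip, so condition and lane cannot be told apart, and the 3 populations of a library are not replicates of its condition.

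Type I interferons are cytokines that bind a receptor made of Ifnar1 and Ifnar2. The kinases Jak1 and Tyk2 then activate Stat2, which joins Irf9 and binds interferon-stimulated response elements in the promoters of many genes. Those genes encode proteins that detect viral nucleic acid, block viral translation and replication, and raise the cell's capacity to sense interferon again. Rsad2 (viperin) makes a nucleotide that ends viral RNA chains, and Cmpk2 beside it in the genome is a nucleotide kinase. Ifit1 binds the caps of foreign RNA, Ifit3 belongs to the same family, and Oasl1 is an oligoadenylate synthetase-like protein that holds back translation of the interferon regulator Irf7. Neutrophils with such transcripts are known from healthy mice as well as from infection and tumours.

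The interferon-stimulated response element is a pair of GAAA words, and its letters could be read beside these genes. Promoters from 250 bases before to 50 bases after each annotated start (RefSeq, GRCm38.p6) were searched for 1 motif, 2 GAAA words with any 2 bases (N, N) between them, on either strand; matches may overlap each other. It was in 3.44% of 32851 promoters of all genes. Bases -220 to -51 from the start are shown, in the direction of transcription, for genes that the results below turn on: 4 of the Ifit genes and rule genes that hold the motif, Isg15, which the rule did not use, Oasl1, a rule gene whose window held no match, and Ifitm1, whose transcripts did not follow the other genes. Capitals mark the GAAA or TTTC letters of a match, where TTTC is GAAA read on the opposite strand.
Ifit1: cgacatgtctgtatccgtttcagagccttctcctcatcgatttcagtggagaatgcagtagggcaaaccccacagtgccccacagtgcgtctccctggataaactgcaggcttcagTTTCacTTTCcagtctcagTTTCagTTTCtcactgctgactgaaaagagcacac
Ifit3: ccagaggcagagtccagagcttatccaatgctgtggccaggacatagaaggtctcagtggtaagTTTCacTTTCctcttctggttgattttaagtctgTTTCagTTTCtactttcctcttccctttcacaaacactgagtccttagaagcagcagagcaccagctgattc
Ifit3b: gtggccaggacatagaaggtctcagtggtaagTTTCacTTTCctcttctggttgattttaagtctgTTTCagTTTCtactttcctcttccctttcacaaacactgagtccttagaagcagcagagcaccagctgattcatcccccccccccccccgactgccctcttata
Rsad2: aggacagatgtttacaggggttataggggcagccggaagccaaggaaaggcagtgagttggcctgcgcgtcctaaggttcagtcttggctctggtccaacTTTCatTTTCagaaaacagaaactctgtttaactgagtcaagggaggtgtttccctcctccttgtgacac
Isg15: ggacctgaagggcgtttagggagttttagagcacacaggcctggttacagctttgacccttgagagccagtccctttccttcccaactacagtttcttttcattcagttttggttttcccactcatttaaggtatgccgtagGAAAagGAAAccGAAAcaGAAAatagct
Oasl1: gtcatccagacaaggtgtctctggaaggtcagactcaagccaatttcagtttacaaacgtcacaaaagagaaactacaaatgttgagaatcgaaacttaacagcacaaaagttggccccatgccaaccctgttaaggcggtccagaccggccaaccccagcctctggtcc
Ifitm1: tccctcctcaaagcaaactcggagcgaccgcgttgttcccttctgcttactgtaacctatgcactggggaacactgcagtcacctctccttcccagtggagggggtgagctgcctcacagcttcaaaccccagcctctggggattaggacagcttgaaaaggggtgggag

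Ifit1 (chr19:34640669-34640838 on the forward strand) held matches whose first base is -104 and -85 from the start, Ifit3 (chr19:34583309-34583478 on the forward strand) at -156 and -122, and Rsad2 (chr12:26456503-26456672 on the reverse strand) 1 match at -120. Isg15 (chr4:156200869-156201038 on the reverse strand) held 3 overlapping matches that start at -78, -72 and -66, a run of 4 GAAA words. The windows of Oasl1 (chr5:114923020-114923189 on the forward strand) and Ifitm1 (chr7:140967856-140968025 on the forward strand) held none, which says only that these letters are not in this window. Ifit3b (chr19:34607737-34607906 on the forward strand) held the same pair of matches as Ifit3, 32 bases further from its start. The windows of these neighbouring genes were identical over all 138 bases that can be laid over each other. These bases lie before the start, and the transcripts themselves were not compared. Whether reads of Ifit3 and Ifit3b can be told apart was not tested, so their separate levels are uncertain. The motif was in 3 of the 5 rule genes and in 19 of the 33 genes found in the table (57.6%) among those at least 2-fold higher in the selected cells of all 3 libraries, as listed below. It was in 5.42% of the 2454 genes measured there. By list it was in 9 of 10 interferon-induced GTPases, 16 of 35 antiviral effectors, 4 of 14 genes of class I antigen presentation, 2 of 15 genes of interferon signalling and 1 of 12 tumour-associated genes.

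The libraries differed in depth, at 32089597, 54424062 and 99703525 UMIs over 7738, 7840 and 10828 barcodes in naive, AT3 and AT3-gcsf. Selected cells had a median of 2766, 5658 and 8933 UMIs and the other neutrophils 2630, 4351 and 7478, so a minimum of 4 raw UMIs asks for a higher share of transcripts in naive than in AT3-gcsf cells. Shares and levels are therefore also given after each cell was thinned to 2000 randomly drawn UMIs, with shallower cells left out. The cells carried neutrophil transcripts: the 10 neutrophil markers summed to 205076, 321585 and 304565 CPM (counts scaled to the same total in each sum), and all 10 were at 20 CPM or more in each library. These sums include S100a8 and S100a9, which the rule itself required. Those genes made up a median of 13.5%, 24.6% and 27.3% of the UMIs of selected cells. The other listed markers, such as Csf3r and Cxcr2, were not used by the rule. Markers of dendritic cells (Siglech, Flt3, Xcr1 and 7 more) summed to 17.3, 16.3 and 17.9 CPM, against 16.2, 8.96 and 6.88 in the other neutrophils, and none reached 20 CPM; their part in the results was not tested. The 10 T or NK cell markers summed to 22.9, 3.03 and 0.272 CPM, and Cd8a, Klrb1c, Ncr1 and Gzma were at 0 in each library. The 12 monocyte or macrophage markers summed to 404, 571 and 372 CPM, against 362, 384 and 297 in the other neutrophils. Of them, 3, 2 and 3 reached 20 CPM, with Ms4a7 at 0 in naive and C1qa and C1qb at 0 in both tumour libraries. The 8 B cell markers summed to 160, 50.3 and 11.4 CPM, against 171, 31.9 and 10.8, and 1, 1 and 0 of them reached 20 CPM. Of the selected cells, 3, 5 and 1 had over 1% of their UMIs from red cell, platelet, epithelial or endothelial markers. Of these, 1 cell in naive held 97.0% of the Hbb-bs (haemoglobin) transcripts of the selected cells and 1 in AT3 held 93.3%, and results were also computed without such cells. Libraries shared 44, 20 and 20 barcodes (naive with AT3, naive with AT3-gcsf, AT3 with AT3-gcsf), at most 3 of them among the selected cells of a library.

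Interferon-high cells were the smallest share in the AT3-gcsf library by each of the 4 measures used. Among neutrophils that met the rest of the rule, naive had 10.0% (9.27 to 10.8) of them, AT3 13.7% (12.9 to 14.6) and AT3-gcsf 3.55% (3.20 to 3.94), with exact 95% Clopper-Pearson intervals that cover counting error only. At 2000 UMIs per cell the shares were 6.67% (5.99 to 7.41), 5.48% (4.94 to 6.06) and 0.719% (0.561 to 0.908), over 4854, 6548 and 9735 cells, with 1313, 259 and 145 shallow cells left out. The naive and AT3 libraries thus changed places, and their order depended on the depth at which cells were read. At 1000 UMIs and a minimum of 2 marker UMIs the shares were 9.01% (8.30 to 9.77), 7.42% (6.81 to 8.08) and 1.06% (0.866 to 1.28). With the markers asked to make up 0.1% of UMIs in place of the count of 4, they were 12.3%, 9.77% and 1.31%.

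The populations of a library differed as well. In naive, MHTO3 had 11.9% (10.7 to 13.2), MHTO4 7.66% (6.24 to 9.27) and MHTO5 8.96% (7.80 to 10.2), and at 2000 UMIs 9.96% (8.61 to 11.4), 3.02% (2.10 to 4.19) and 5.75% (4.76 to 6.89). In AT3, MHTO7 had the highest raw share at 16.8% (14.9 to 18.8), with MHTO8 at 11.4% (10.3 to 12.6) and MHTO10 at 14.5% (13.2 to 15.99). Thinned, MHTO10 was highest at 7.91% (6.84 to 9.09) and MHTO7 and MHTO8 overlapped at 4.39% (3.40 to 5.57) and 4.07% (3.37 to 4.87). MHTO7 cells were the deepest of that library, with a median of 7804 UMIs against 4846.5 and 3269. In AT3-gcsf the shares were 3.67%, 2.72% and 4.24%, and thinned 1.05% (0.705 to 1.51), 0.567% (0.341 to 0.883) and 0.607% (0.381 to 0.918). All 3 AT3-gcsf populations lay below all 6 populations of the other libraries, raw and thinned. Selected cells per population ran from 93 (AT3-gcsf MHTO4) to 359 (AT3 MHTO10).

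**Figure D1:**
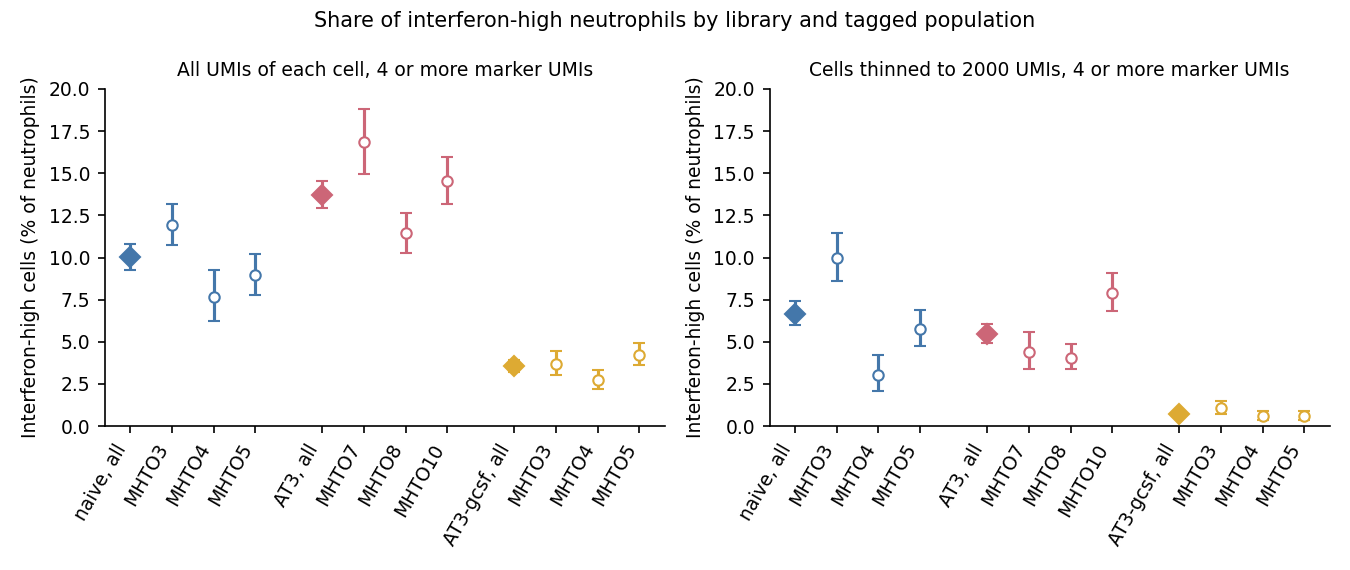
Share of neutrophils that were interferon-high, in percent, for each library (diamonds) and each tagged population (open circles), from all UMIs (left) and after thinning to 2000 UMIs (right); bars are exact 95% intervals for counting error. AT3-gcsf is lowest in both panels, while naive at 10.0% lies below AT3 at 13.7% on the left and above it, 6.67% against 5.48%, on the right.

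Droplets also catch free RNA, so the same markers were counted in cells that the rule left out, at 1000 UMIs and 2 or more marker UMIs. In cells rich in Camp, Ltf and Ngp the share was 1.33% (0.667 to 2.37), 1.46% (0.670 to 2.76) and 0.633% (0.0160 to 3.48), at median depths of 9008, 17429 and 24312 UMIs before thinning. In naive and AT3 these were below the shares of 9.01% and 7.42% in the rule's neutrophils (median depths 2669 and 4504 UMIs), while in AT3-gcsf 1 of 158 cells gave an interval that holds the 1.06% of that library, so the 2 were not distinguishable at this depth. In cells under 2% S100a8 and S100a9 the share was 5.29% (3.26 to 8.05), 7.33% (4.07 to 12.0) and 0.806% (0.0204 to 4.41), at median depths of 2898.5, 3524 and 3765.5 UMIs. The AT3 and AT3-gcsf values differed from those of the rule's neutrophils by less than their intervals. Neither group is known to lack interferon-stimulated transcripts, and how much of these shares is free RNA was not tested.

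The 5 rule genes were not in the same proportion in the 3 conditions. Rsad2 (chr12:26442746-26456452, GENCODE annotation of GRCm38) led in naive selected cells and Ifit1 (chr19:34640871-34650009) in AT3 and AT3-gcsf ones. Rsad2 made up 46.4%, 29.1% and 24.3% of the 5930, 10553 and 3463 marker UMIs in naive, AT3 and AT3-gcsf. Ifit1 made up 16.1%, 33.5% and 39.9%. By population, Ifit1 took 18.9, 15.5 and 11.6% in naive MHTO3, MHTO4 and MHTO5, 32.1, 32.0 and 36.2% in AT3 MHTO7, MHTO8 and MHTO10, and 43.8, 39.7 and 37.8% in AT3-gcsf MHTO3, MHTO4 and MHTO5. These point values did not overlap between the 3 libraries. The intervals did between AT3 and AT3-gcsf, as for AT3 MHTO10 (34.7 to 37.8) and AT3-gcsf MHTO5 (35.5 to 40.2). For Rsad2 the populations took 39.0, 35.6 and 63.2% in naive, 25.6, 39.0 and 23.6% in AT3 and 18.8, 17.9 and 30.7% in AT3-gcsf, and the ranges overlapped.

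Ifit3 (chr19:34583531-34588731) held 18.1, 21.2 and 13.5% of the marker UMIs, Cmpk2 (chr12:26469204-26479837) 11.3, 6.72 and 4.19%, and Oasl1 (chr5:114923240-114937915) 8.06, 9.46 and 18.1%. Oasl1 was at 16.1, 22.3 and 17.2% in the AT3-gcsf populations, above all 6 others, which ran from 7.64% to 10.5%. Cmpk2 was highest in naive MHTO4, at 26.6%, against 11.1% and 5.48% in MHTO3 and MHTO5. Ifit1 had at least 1 UMI in 303 of 617 naive (49.1%), 686 of 934 AT3 (73.4%) and 250 of 351 AT3-gcsf cells (71.2%), and Rsad2 in 92.5%, 83.7% and 66.1%. All 5 genes were seen in 57, 84 and 18 cells and a single one in 66, 61 and 50 cells.

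**Figure D2:**
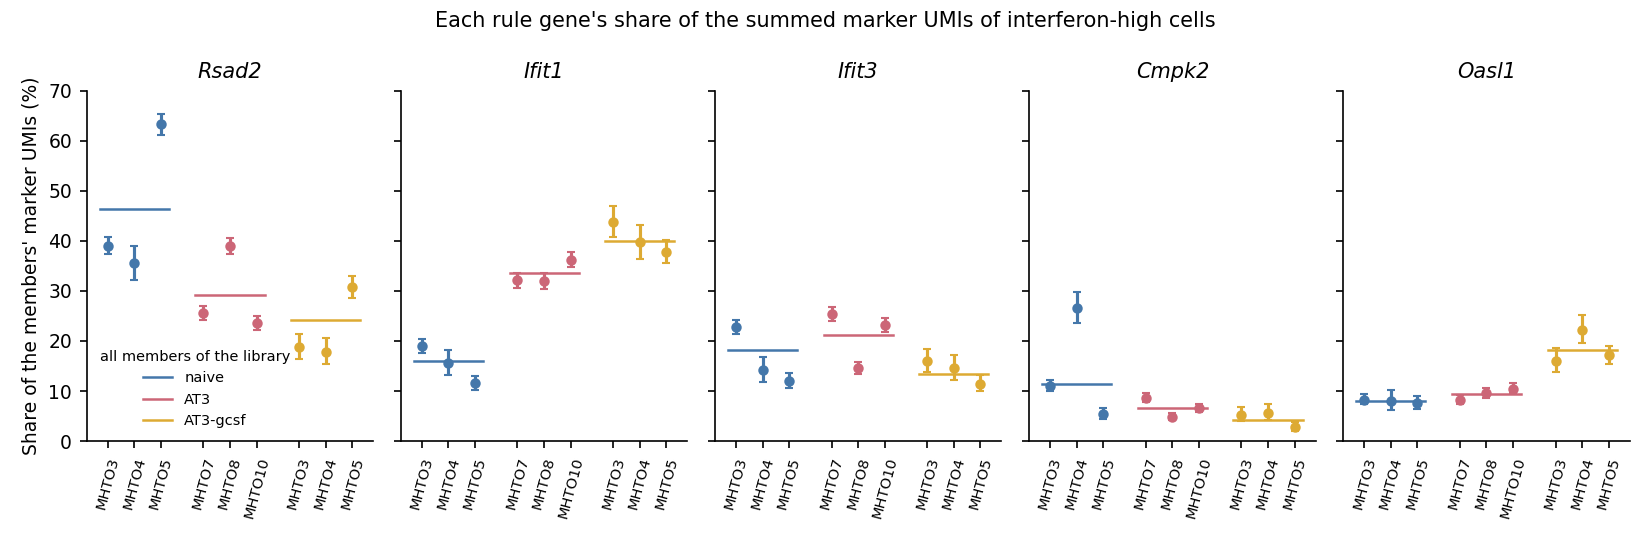
Each rule gene's share of the marker UMIs of interferon-high cells, in percent, for the 9 tagged populations (points, with exact 95% intervals for counting error) and for all selected cells of a library (lines). Ifit1 runs from 11.6% to 18.9% in naive, 32.0% to 36.2% in AT3 and 37.8% to 43.8% in AT3-gcsf, and intervals of the last 2 libraries overlap.

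In level, Rsad2 was at 1288 (1240.2 to 1337), 491 (474 to 508) and 228 (213 to 244) CPM in naive, AT3 and AT3-gcsf selected cells (exact 95% Poisson intervals, counting error only). Its populations were at 1355, 662 and 1553 CPM in naive, 422, 527 and 526 in AT3 and 212, 157 and 272 in AT3-gcsf. Every naive population lay above every AT3 population, and these above every AT3-gcsf one. Ifit1 was at 445 (417 to 475), 564 (546 to 583) and 375 (356 to 396) CPM, with populations at 657, 289 and 284 in naive, 529, 433 and 809 in AT3 and 495, 349 and 335 in AT3-gcsf, which overlapped. Cmpk2 stood at 315, 113 and 39.4 CPM, Ifit3 at 502, 357 and 127 and Oasl1 at 224, 159 and 170.2. These levels carry the depth difference, since a deep cell needs a lower share of marker transcripts to be selected. In the 324, 359 and 70 cells that still had 4 marker UMIs after thinning to 2000, Rsad2 was at 1931, 1145 and 1021 CPM and Ifit1 at 738, 1509.8 and 1750.0. Ifit1 was then lower in naive and higher in AT3-gcsf, the opposite order to Rsad2. Cmpk2 was at 429, 199 and 157 CPM, Ifit3 at 877, 932 and 657, and Oasl1 at 335, 347 and 357, close to level.

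Marker transcripts were graded, with no gap at the minimum of 4. Selected cells had a median of 7, 7 and 6 marker UMIs and a maximum of 71, 165 and 138, and 55, 109 and 33 cells had 20 or more. They held 71.5%, 76.9% and 60.8% of all marker UMIs of their library's neutrophils. Just outside the rule, 382 and 217 naive cells had 2 and 3 marker UMIs, and just inside it 143 and 97 had 4 and 5. In AT3 these were 559, 291, 189 and 149 cells, and in AT3-gcsf 360, 156, 107 and 54. Isg15, a gene outside the rule, was at 582, 1093, 901 and 1295 CPM in naive cells with 2, 3, 4 and 5 marker UMIs, 450.2, 461, 742 and 677 in AT3 and 224, 276, 250.4 and 321 in AT3-gcsf. In cells thinned to 2000 UMIs the variance of the marker count over its mean was 8.0, 7.58 and 5.56, while counts spread evenly over equal cells would give a variance close to the mean.

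Genes outside the rule were higher in bins of higher marker count in thinned cells. With 0, 1, 2 to 3, 4 to 7 and 8 or more marker UMIs, Isg15 was at 459.8, 528, 1156, 1926 and 3715 CPM in naive, 359, 548, 863, 1584 and 2988 in AT3 and 91.4, 265, 513, 739 and 3146 in AT3-gcsf. Irf7, the transcription factor that amplifies interferon output, went from 70 to 800.0 CPM in naive, 108 to 825 in AT3 and 56.1 to 854 in AT3-gcsf. In the highest bin Irf7 was nearly level between the libraries, though the bin held 135, 126 and 24 cells of 4854, 6548 and 9735. Ifitm1 did not follow the markers, at 1158, 979.9, 1075, 1119 and 1137 CPM in naive, 12314, 12363, 12887, 12461 and 12917 in AT3 and 22784, 22656, 21886, 21783 and 19333 in AT3-gcsf. Wfdc17, a secreted protein gene that was high in tumour-bearing mice, did not follow them either. Over the bins it was at 907, 564, 769, 960.3 and 1048 CPM in naive, 14100.1, 14418, 14883, 14292 and 16159 in AT3 and 25734, 26462, 25418, 24500.0 and 21063 in AT3-gcsf, where the value was lowest in the highest bin.

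**Figure D3:**
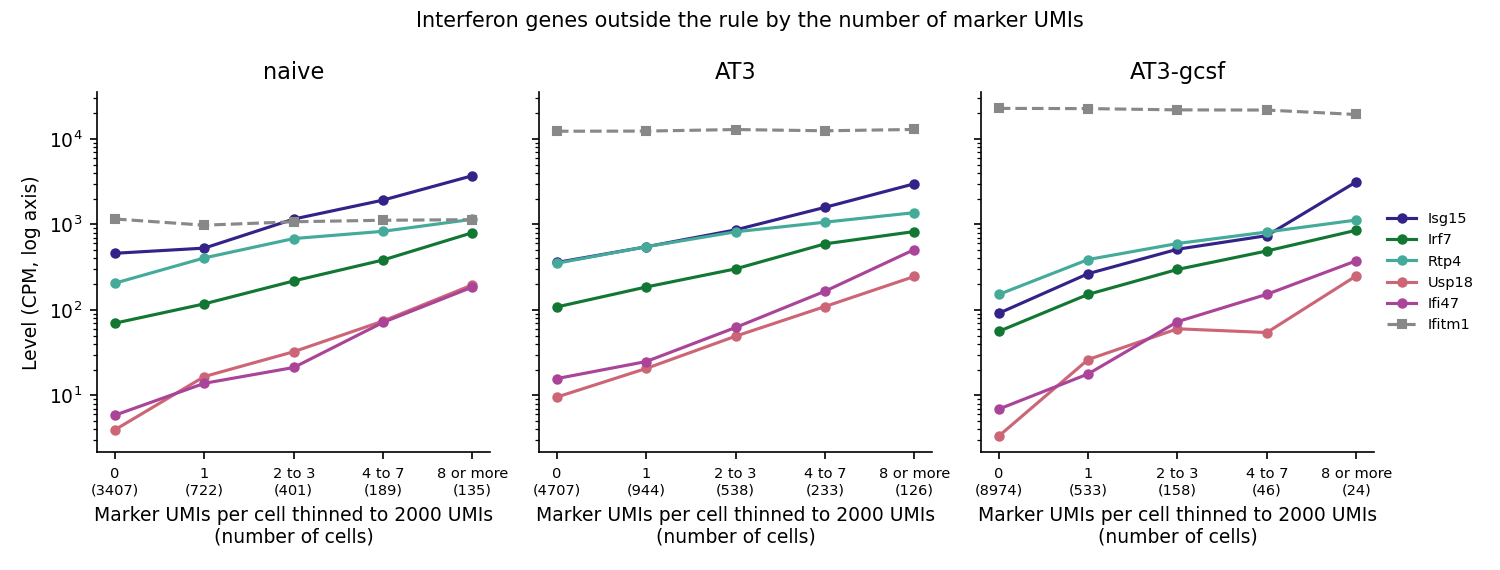
Levels of 5 interferon-stimulated genes outside the rule and of Ifitm1 (CPM, log axis) against the number of marker UMIs of cells thinned to 2000 UMIs, per library, with the number of cells in brackets; points are sums over cells with no error bars. Isg15 runs from 459.8 to 3715 CPM in naive and 91.4 to 3146 in AT3-gcsf, while Ifitm1 stays level within each library.

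Beside the rule genes, interferon-high cells differed 2-fold from the other neutrophils of their library in few genes when all UMIs were counted. Transcripts were summed over cells, and a gene counted as measured at 20 CPM or more in the higher sum; log2 ratios had 5 CPM added to both sides and a 2-fold difference was counted. Of 4074, 3462 and 3441 measured genes in naive, AT3 and AT3-gcsf, 80 (1.96%), 67 (1.94%) and 81 (2.35%) passed 2-fold upward in the selected cells and 7 (0.172%), 0 (0%) and 2 (0.0581%) downward. In cells selected and counted after thinning to 2000 UMIs the counts were 119, 111 and 353 upward and 22, 11 and 251 downward, with AT3-gcsf resting on 70 selected cells. The 7 lower genes of naive were 14 without MHTO5, and the 2 of AT3-gcsf were 4 without MHTO3, 1 without MHTO4 and 6 without MHTO5. Of the 3042 genes measured in all 3 libraries, 40 (1.31%) were higher in each and 0 (0%) lower in each. All 40 were also higher in the selected cells of all 9 populations. Of the 40, 30 stood on the gene lists used here, and the other 10 were Gm13822, Ifit1bl2, Ifi207, Rnf213, Trafd1, Parp12, Tor3a, Mitd1, Gm20559 and Epsti1. Since the rule chose cells by genes of the same response, these ratios describe the cells and are no test of it.

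Antiviral effectors made the largest group. Of 45 listed genes, 43 were in the files, and 25 of 31, 17 of 32 and 18 of 30 of those measured were at least 2-fold higher in naive, AT3 and AT3-gcsf selected cells, with median log2 ratios of 1.58, 1.01 and 1.13 against 0.00, -0.05 and -0.04 over all measured genes. Ifit3b, the near copy of Ifit3, was at 333, 216 and 60.3 CPM against 12.1, 9.05 and 1.13 in the other neutrophils (log2 4.30, 3.98 and 3.41). Without naive MHTO3 its naive ratio was 3.64, and that of Ifit3 4.58 in place of 5.18. Ifit2, another member of that RNA-binding family, was at 59.4, 40.7 and 28.8 CPM against 1.15, 0.920 and 0.147 (log2 3.39, 2.95 and 2.71). Slfn5 of the schlafen family was at 496, 336 and 156 against 64.5, 78.9 and 26.6 CPM (log2 2.85, 2.02 and 2.35), and Slfn8 had log2 ratios of 2.12, 1.67 and 1.70. Eif2ak2 (PKR), the kinase that stops translation on double-stranded RNA, had 1.69, 1.35 and 1.28, and Bst2 (tetherin), which holds budding virus at the cell surface, 1.63, 1.44 and 1.74. The oligoadenylate synthetases, whose product activates RNA decay, were Oas1a (1.58, 1.15 and 1.16) and Oas3 (1.65, 1.01 and 1.19). Oas3 in AT3 was at 0.92 without MHTO10.

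Among the most abundant effectors, Ifi27l2a was at 2249.6, 1511 and 348 CPM in selected cells against 985, 776 and 109.8 in the others, and Rtp4, a chaperone that restrains flavivirus, at 755, 723 and 490.1 against 244, 343 and 149. Both were thus abundant outside the selected cells too. Some members hardly differed. Log2 ratios, in the order naive, AT3 and AT3-gcsf, were near 0 for Ifitm1 (-0.08, -0.11 and -0.04), Ifitm2 (0.02, -0.10 and -0.12) and Ifitm6 (-0.23, -0.02 and 0.03), membrane proteins of the family that blocks virus entry. The gene of Samhd1, which drains nucleotides, had 0.31, 0.38 and 0.27. Ifitm3 of the same family was at 2092, 4286 and 3827 CPM against 1019, 3054 and 2761 (log2 1.03, 0.49 and 0.47), higher in the selected cells of all 9 populations. Its naive ratio was 0.97 without MHTO5.

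ISG15 is a ubiquitin-like protein that interferon-treated cells attach to other proteins. Isg15 (chr4:156199424-156200818) was at 1779 (1723 to 1837), 1078 (1053 to 1104) and 525 (502 to 549) CPM in selected cells against 447, 330.3 and 88.8 in the others (log2 1.98, 1.69 and 2.50). The ratios within single populations were 1.63 to 2.93 in naive, 1.36 to 2.83 in AT3 and 2.16 to 2.82 in AT3-gcsf. Without naive MHTO5 the naive ratio was 2.92, and without AT3 MHTO8 the AT3 ratio was 2.53. Usp18, which removes ISG15 and blocks the interferon receptor, was at 87.0, 72.3 and 50.2 CPM against 8.09, 9.57 and 3.66 (log2 2.81, 2.41 and 2.67), and Herc6, the mouse ISG15 ligase, at 95.9, 70.1 and 39.6 against 10.6, 11.2 and 6.22 (log2 2.70, 2.21 and 1.99). The E2 enzyme gene Ube2l6 had ratios of 1.42, 1.11 and 1.12, and the E1 enzyme gene Uba7 the smallest, at 0.81, 0.41 and 0.70, both under 20 CPM in AT3-gcsf. Ube2l6 in AT3 was at 0.84 without MHTO7 and 0.94 without cells that carried other cell types' transcripts. In all, 4 of 5, 4 of 5 and 3 of 3 measured members were at least 2-fold higher.

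Nucleic acid sensors had 5 of 7, 5 of 6 and 5 of 6 measured members at least 2-fold higher. The genes of the RNA sensors RIG-I, MDA5 and LGP2 are Ddx58 (1.64, 1.20 and 1.16), Ifih1 (1.97, 1.32 and 1.12) and Dhx58 (1.09, 1.02 and 1.17), with their log2 ratios in brackets. Zbp1, which senses left-handed nucleic acid and can start necroptosis, was at 89.8, 152 and 102 CPM against 16.9, 52.8 and 27.5 (log2 2.11, 1.44 and 1.71). Dhx58 was just under 2-fold without naive MHTO5 (0.98) or AT3 MHTO8 (0.97). The DNA sensor gene Aim2 (0.38, -0.13 and -0.39, under 20 CPM in both tumour libraries) and the peptidoglycan sensor gene Nod1 (0.16, 0.43 and 0.24) hardly differed. Interferon-induced GTPases, which attack vacuoles that hold microbes, had 7 of 7, 6 of 7 and 6 of 6 members at least 2-fold higher, with medians of 1.89, 1.26 and 1.54. Ifi47 was at 78.1, 112 and 58.9 CPM against 8.33, 13.4 and 6.38 (log2 2.64, 2.67 and 2.49), Irgm1 at 105, 105 and 59.7 against 20.8, 25.3 and 15.2 and Gbp2 at 151, 336 and 167 against 34.5, 138 and 54.6. Most measured GTPases thus passed 2-fold in each library, also in AT3-gcsf, where selected cells were rarest. Gbp3, which in AT3 had 1.10, was at 0.94 without MHTO10, and was under 20 CPM in the other libraries.

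In the signalling pathway, the transcription factor genes Irf7 and Stat2 were at least 2-fold higher in each library. Irf9 was so in naive only when all UMIs were counted, and was at 1.21, 0.84 and 1.48 after thinning. Irf7 was at 377, 350.0 and 239 CPM against 78.4, 109 and 59.1 (log2 2.19, 1.64 and 1.93), Stat2 had ratios of 1.81, 1.61 and 1.59, and Irf9 had 1.10, 0.62 and 0.69. All 3 were higher in the selected cells of all 9 populations. The receptor genes Ifnar1 (-0.14, -0.21 and -0.05) and Ifnar2 (-0.06, -0.14 and -0.17), the interferon-gamma receptor genes Ifngr1 (0.02, -0.21 and -0.17) and Ifngr2 (-0.05, -0.02 and -0.05) and the kinase genes Jak1 (0.00, -0.05 and -0.04) and Jak2 (-0.02, 0.09 and 0.01) all had ratios within 0.21 of 0. The transcription factor genes Irf1 (0.44, 0.31 and 0.25) and Irf2 (0.48, 0.25 and 0.32) stood between. Of the pathway list, 4 of 14, 2 of 12 and 3 of 12 measured members were at least 2-fold higher. The list of feedback inhibitors had 0 of 7, 0 of 6 and 0 of 6. Of the listed genes named here, Socs1, the inhibitor of Jak kinases, was highest at 0.99, 0.93 and 0.39 but under 20 CPM in both tumour libraries. Socs3 was at 0.03, -0.01 and -0.21 and the phosphatase gene Ptpn6 at 0.01, -0.14 and -0.17. That list leaves out Usp18, which also blocks the interferon receptor and was counted with the ISG15 genes, at 2.81, 2.41 and 2.67. Transcripts of interferons themselves did not reach the 20 CPM minimum for any of 11 genes (Ifnb1, Ifng, alpha and lambda interferons) in any library, and Ifnb1 and Ifng had 0 UMIs in the selected cells.

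Class I antigen presentation genes were higher by a smaller amount when all UMIs were counted. All 16, 13 and 13 measured members had ratios above 0, with medians of 0.55, 0.47 and 0.39, and 1, 0 and 1 reached 2-fold. Tap1, the peptide transporter, had 1.02, 0.83 and 1.02, and the immunoproteasome subunit genes were Psmb8 (0.96, 0.77 and 0.70) and Psmb9 (0.88, 0.56 and 0.40). Tap1 was at 0.83 in naive without MHTO3 and 0.95 in AT3-gcsf without MHTO3. The genes of the presenting molecules had less, with H2-K1 (0.35, 0.19 and 0.30), H2-D1 (0.16, 0.09 and 0.04) and B2m (0.42, 0.13 and 0.12). After thinning, Tap1 (1.48, 1.33 and 1.79) and Psmb8 (1.27, 1.10 and 1.75) passed 2-fold in each library. Psmb9 was then at 1.04, 0.92 and 1.03. H2-K1 (0.38, 0.56 and 0.76), H2-D1 (0.19, 0.27 and 0.38) and B2m (0.56, 0.62 and 0.56) stayed under 2-fold. The thinned AT3-gcsf values rest on 70 selected cells. Cd274 (PD-L1), the ligand that restrains T cells, was at 114, 49.3 and 25.8 CPM against 77.7, 32.8 and 12.9 (log2 0.52, 0.52 and 0.78) and higher in the selected cells of all 9 populations. It passed 2-fold without naive MHTO5 (1.71) or without AT3 MHTO8 (1.24), the populations richest in Il1b. On the list of genes that lean to interferon-gamma, which holds Cd274, 1 of 7, 2 of 4 and 2 of 5 measured members were at least 2-fold higher.

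Other gene groups of neutrophils were mostly level when all UMIs were counted. Of chemokine and cytokine genes 1 of 14, 1 of 14 and 0 of 10 measured members were at least 2-fold higher, the 1 being Cxcl10, a chemokine for T cells, at 55.2, 39.4 and 1.36 CPM against 5.19, 4.91 and 2.59. Cxcl10 rested on few cells: 21, 23 and 3 selected cells had a UMI, and 1 cell held 28.8%, 33.6% and 60% of them. Il1b and Cxcl2 were level, with Il1b (0.03, -0.32 and 0.09) and Cxcl2 (-0.07, -0.16 and 0.14). Of cell death genes 0 of 13, 0 of 12 and 0 of 11 reached 2-fold over all UMIs. The caspase genes Casp8 (0.76, 0.74 and 0.78), Casp1 (0.66, 0.34 and 0.40) and Casp4 (0.65, 0.24 and 0.27) were higher in all 9 populations by less, while the survival gene Mcl1 stood at 0.08, -0.15 and 0.02. After thinning, Casp8 passed 2-fold in each library, at 1.10, 1.05 and 1.36. Casp1 (0.63, 0.52 and 0.52), Casp4 (0.94, 0.61 and 0.92) and Mcl1 (0.15, 0.05 and 0.11) then stayed under 2-fold. Granule and maturation genes had 0 of 17, 0 of 17 and 0 of 17 at least 2-fold higher, and 0, 0 and 1 lower. Tumour-associated genes had 0 of 15, 0 of 17 and 0 of 17 higher, and 1, 0 and 0 lower. Among the granule and maturation genes, Ly6g, a surface marker of mouse neutrophils, had 0.08, 0.22 and 0.21. The receptor genes were Csf3r (0.08, -0.13 and -0.10) and Cxcr2 (0.14, 0.02 and -0.14). In thinned cells Ly6g was at -0.58, -0.10 and -0.48 and Lcn2 at -0.67, -0.45 and -0.56. Camp was then at -0.77, -0.23 and -2.63, while Csf3r was above 0, at 0.25, 0.26 and 0.32. The AT3-gcsf values there rest on 70 selected cells.

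**Figure D4:**
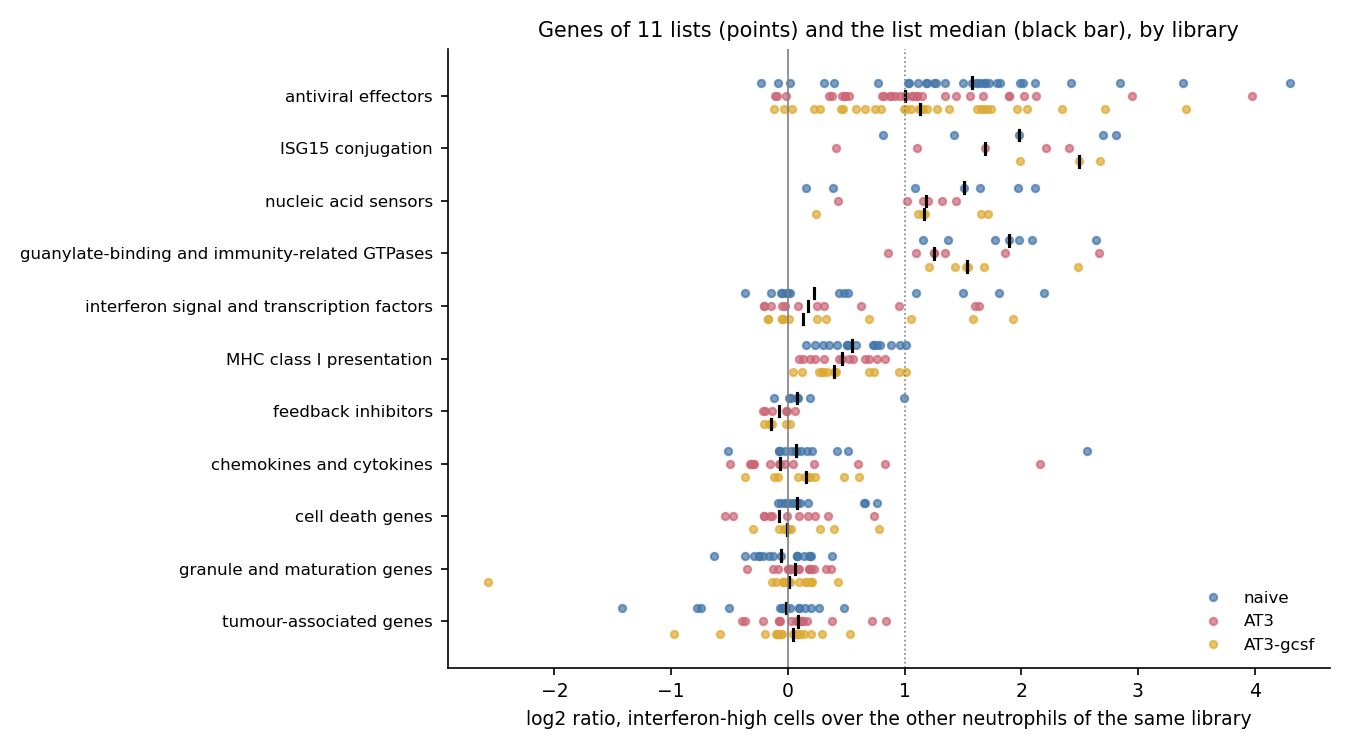
Log2 ratio of interferon-high cells over the other neutrophils of the same library for the measured genes of 11 lists (points, coloured by library), with the list median as a black bar and a dotted line at 2-fold; genes are not replicates. Antiviral, ISG15, sensor and GTPase genes lie mostly beyond 1, and granule, tumour-associated and feedback genes lie mostly around 0. Usp18, which also blocks the interferon receptor, is drawn with the ISG15 genes and not with the feedback genes.

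Selected cells of the 3 populations of a library differed from each other in inflammatory transcripts. In each library 1 population had far more Il1b, the gene of a pro-inflammatory cytokine, in its selected cells: naive MHTO5, AT3 MHTO8 and AT3-gcsf MHTO5. In naive MHTO3, MHTO4 and MHTO5 it was at 3256, 409.5 and 15251 CPM, in AT3 MHTO7, MHTO8 and MHTO10 at 544, 14760.4 and 3241, and in AT3-gcsf MHTO3, MHTO4 and MHTO5 at 905, 418 and 8714. Cxcl2, a neutrophil attractant, was at 163, 64.8 and 6949 CPM in naive, 109, 6729 and 127 in AT3 and 79.7, 138 and 4441 in AT3-gcsf, in the same order. These 3 populations were picked after their values were seen, so what follows describes them. Of the 45 interferon genes (the 5 of the rule and the 40 above), Isg15, Isg20 and Rsad2 were highest in that population of all 3 libraries (6.67%), against 493 of all 3042 measured genes (16.2%). Isg15 was at 1194, 541 and 3139.8 CPM in naive, 717, 1431 and 1016 in AT3 and 450.1, 323 and 661 in AT3-gcsf. Isg20, an exonuclease gene, was at 239, 120.3 and 489.9 in naive, 188, 284 and 241 in AT3 and 170.0, 114 and 197 in AT3-gcsf.

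Another 12 of the 45 were lowest there in all 3 libraries (26.7%), against 628 of the 3042 (20.6%). They were Cmpk2, Ddx58, Ddx60, Dtx3l, Ifit1, Ifit1bl2, Igtp, Irgm1, Parp12, Stat2, Tor3a and Usp18. Usp18 was at 122, 99.5 and 39.3 CPM in naive, 89.9, 40.3 and 97.7 in AT3 and 58.6, 54.5 and 44.2 in AT3-gcsf. Ifit1 was nearly level between naive MHTO4 and MHTO5, at 289 and 284. Cmpk2 and Rsad2, neighbours on chromosome 12, stood at opposite ends in these populations, with Cmpk2 at 135 CPM and Rsad2 at 1553 in naive MHTO5. In naive MHTO4 they were at 495 and 662 CPM. In AT3 Rsad2 was level between MHTO8 and MHTO10, at 527 and 526 CPM. The AT3 values in MHTO7 and MHTO10 were 143 and 146 CPM for Cmpk2, against 65.7 in MHTO8.

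Between conditions, interferon-high cells of AT3 mice had more transcript of a set of genes known from neutrophils of tumour-bearing mice and no common direction in interferon-stimulated genes. Of 4035 measured genes, 107 (2.65%) were higher by 2-fold or more in AT3 and 466 (11.5%) lower, with a median log2 ratio of -0.43. With TMM scaling, which sets the bulk of genes level, the median was 0.05 and the counts were 234 higher and 110 lower. When totals left out the 20 genes of highest abundance they were 251 and 265. Without naive MHTO5 they were 196 and 558, and in thinned cells 167 and 368. Values below are on the CPM scale and are read against that shift. In 949 genes (23.5%) all 9 pairs of an AT3 and a naive population lay on one side. Wfdc17 was at 13683 (13592 to 13775) CPM against 802 (764 to 841) (log2 4.08), with AT3 populations at 11188, 14053 and 16395 and naive ones at 959, 146 and 979. Ifitm1 was at 10130.0 against 1025 CPM (log2 3.30), with AT3 populations at 7854, 10389 and 12721 and naive ones at 1162, 469.7 and 1171. Prok2, which encodes a secreted chemoattractant, was at 702 against 13.1 (log2 5.29, and 6.02 without naive MHTO4), and Igfbp6, which binds insulin-like growth factors, at 406 against 21.1. None of the AT3 and naive populations overlapped in these 4 genes. Of the tumour-associated list, drawn up with earlier results of these cells known, 12 of 18 measured members were at least 2-fold higher and 2 lower.

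Interferon-stimulated genes of the selected cells were not uniformly higher or lower in AT3. Antiviral effectors had a median of -0.32 between the libraries (0.15 with TMM scaling and 0.16 in thinned cells, where all measured genes had -0.20), with 3 of 32 measured members higher by 2-fold or more and 2 lower. Of the 3, all are Ifitm genes: Ifitm1 as above, Ifitm6 at 1739 against 421 CPM (log2 2.03, and 2.76 without naive MHTO4) and Ifitm3 at 4286 against 2092 (log2 1.03, at its lowest 0.96 without naive MHTO5). Gbp2 was at 336 against 151 CPM (log2 1.13), with AT3 populations at 232, 276 and 564 and naive ones at 221, 27.8 and 137, but 0.74 without AT3 MHTO10, 0.87 without naive MHTO4 and 1.72 without naive MHTO3. Rsad2 (-1.38) and Cmpk2 (-1.44) were lower in AT3, and Ifit1 stood at 0.34. In thinned cells Gbp2 was at 205, 797 and 443 CPM in naive, AT3 and AT3-gcsf, and Irf7 at 557, 674 and 614. Among genes whose 9 pairs of populations all lay on one side, the lowest in AT3 were Gm16556, Itgb7, an integrin chain, and Lyl1, a transcription factor. Their log2 ratios were -2.45, -2.20 and -2.20, and Lyl1 was at -1.16 without naive MHTO3.

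In AT3-gcsf selected cells Saa3, Ifitm1, Wfdc17 and Prok2 stood above both other libraries, and most interferon-stimulated genes had log2 ratios below 0 when all UMIs were counted. Against naive this did not hold for every group of them once cells were matched for depth. The median log2 ratio of the GTPase list went from -0.88 to 0.14, and the lists are given both ways below. Ifit1 went from -0.24 to 1.24, but it is a rule gene, and the marker minimum bears on its level in selected cells. Over selected and other neutrophils together, where that minimum plays no part, Ifit1 was lower in AT3-gcsf than in naive. Both this comparison and the one above use the naive cells. Of 4209 genes measured against naive, 260 (6.18%) were at least 2-fold higher and 1156 (27.5%) lower, with a median of -0.53. With TMM scaling the counts were 429 and 622 and the median -0.13, and in thinned cells the counts were 568 and 1104. All 9 pairs of populations lay on one side for 1809 genes (43%). Saa3, an acute-phase protein gene, was at 3829 (3766 to 3893) CPM against 95.4 (87.9 to 103) in AT3 and 6.55 (3.58 to 10.99) in naive. Its AT3-gcsf populations were at 3586, 2517 and 4606 CPM, its AT3 ones at 14.9, 191 and 56.2 and its naive ones at 0, 0 and 17.8. The log2 ratio to naive was 8.37 (9.58 without naive MHTO5) and to AT3 5.25 (6.67 without AT3 MHTO8). Ifitm1 was at 22788 CPM, Wfdc17 at 25797 and Prok2 at 1565, each higher in every AT3-gcsf population than in every AT3 population.

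Against AT3, 88 of 3599 measured genes (2.45%) were at least 2-fold higher in AT3-gcsf selected cells and 77 (2.14%) lower, with a median of -0.09, and all 9 pairs of populations lay on one side for 885 genes (24.6%). Single populations set this balance: the counts were 92 higher and 270 lower without AT3-gcsf MHTO5, 96 and 201 without AT3 MHTO7 and 231 and 115 without AT3 MHTO8. In thinned cells they were 439 and 529. The highest after Saa3 was Spint1, a protease inhibitor, at 159.9 (147 to 173) CPM against 8.78 (6.61 to 11.4) (log2 3.58). Cpne8, a calcium-binding copine, was at 78.7 against 3.19 (log2 3.35), Mmp19, a matrix protease, at 39.9 against 2.23, and the caspase gene Casp6 at 164 against 23.8 (log2 2.55). All 3 AT3-gcsf populations were above all 3 AT3 ones for these 4 genes. Among the lowest were Ifi27l2a, at 348 against 1511 CPM (log2 -2.10), and the granule gene Camp, at 103 against 671 (log2 -2.65, -1.92 without AT3 MHTO7). Ifi27l2a was at 558, 281 and 286 CPM in the AT3-gcsf populations and 1367, 1191 and 2187 in the AT3 ones. Cxcl10 was also low, at 5 UMIs in 3 cells, 1.36 (0.441 to 3.17) CPM against 39.4 (34.7 to 44.7).

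By list, antiviral effectors had a median log2 ratio of -0.84 in AT3-gcsf against naive and -0.53 against AT3, where all measured genes had -0.53 and -0.09. Of 31 and 32 measured members, 12 and 5 were at least 2-fold lower and 2 and 1 higher, and 6 and 2 had ratios above 0. GTPases had -0.88 and -0.77 and 1 of 7 and 0 of 7 above 0. Deep cells are selected at a lower share of marker transcripts, so the lists were also read in cells selected after thinning to 2000 UMIs. There the antiviral medians were -0.30 and -0.33, against -0.32 and -0.09 over all measured genes, and the GTPase medians 0.14 and -0.31. Against naive, the antiviral list was thus at the level of all genes once depth was matched, and the GTPases changed sides. These values rest on 70 AT3-gcsf cells. Isg15 was at 1779, 1078 and 525 CPM in all selected cells of naive, AT3 and AT3-gcsf and at 2671, 2077 and 1564 in thinned ones. Ifi27l2a was at 3063, 2593 and 736 CPM when thinned, so its AT3-gcsf level stayed lowest, while Irf7 and Oasl1, given above, were close to level. For Isg15 the log2 ratio of AT3-gcsf to naive was -1.75 and -0.90 without naive MHTO5. Ifit3b had -2.37, and -1.35 without naive MHTO3, and Ifit3 -1.94 and -1.14.

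Thrombospondin 1 (Thbs1), an adhesion protein gene, showed how far a single population can set a value. It was at 1536, 91.0 and 32.0 CPM in naive, AT3 and AT3-gcsf selected cells, with populations at 93.7, 125 and 3989 in naive, 4.66, 223 and 4.28 in AT3 and 0, 0 and 62.9 in AT3-gcsf. Nearly all of it was in the Il1b-rich population of each library. The log2 ratio of AT3 to naive was -4.00, but -0.18 without naive MHTO5 and -7.34 without AT3 MHTO8. That of AT3-gcsf to naive was -5.38, but -1.55 without naive MHTO5 and -8.27 without AT3-gcsf MHTO5. Between AT3-gcsf and AT3 it was -1.37, and turned to 1.96 without AT3 MHTO8.

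Counted over all UMIs, few genes had a condition difference that was 2-fold apart between interferon-high cells and the other neutrophils. The difference of the 2 log2 ratios was at least 1 for 16 of 4035 genes (0.397%) in AT3 against naive, 50 of 4209 (1.19%) in AT3-gcsf against naive and 30 of 3599 (0.834%) in AT3-gcsf against AT3. Without the 9 cells that carried red cell or tissue transcripts these were 8, 19 and 11. They were 95, 729 and 607 in cells selected and counted after thinning to 2000 UMIs, where the AT3-gcsf values rest on 70 selected cells. Leaving out 1 population gave 14 to 34, 25 to 68 and 28 to 45. The 16 were 34 without naive MHTO3 or AT3 MHTO7, 31 without AT3 MHTO10 and 25 without naive MHTO5, and the 50 were 25 without AT3-gcsf MHTO5. Wfdc17 had 4.08 in selected and 4.02 in other neutrophils for AT3 against naive, Ifitm1 3.30 and 3.33, and Saa3 for AT3-gcsf against naive 8.37 and 8.68. Isg15 and Ifi27l2a, which the rule did not use, were lower in AT3-gcsf than in naive in both. Isg15 had -1.75 and -2.27, Ifi27l2a -2.68 and -3.11, and Ifit3b -2.37 and -1.48. Rsad2 had -2.47 and -2.88, but it is a rule gene, and the marker minimum bears on its level in both groups. In thinned selected cells the ratios were -0.77 for Isg15, -2.05 for Ifi27l2a, -0.69 for Ifit3b and -0.92 for Rsad2. Over selected and other neutrophils together, the 5 rule genes summed to 444, 353 and 66.9 CPM in naive, AT3 and AT3-gcsf, Isg15 stood at 599, 451 and 108 and Irf7 at 112, 148 and 66.8. These sums do not depend on the marker minimum.

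**Figure D5:**
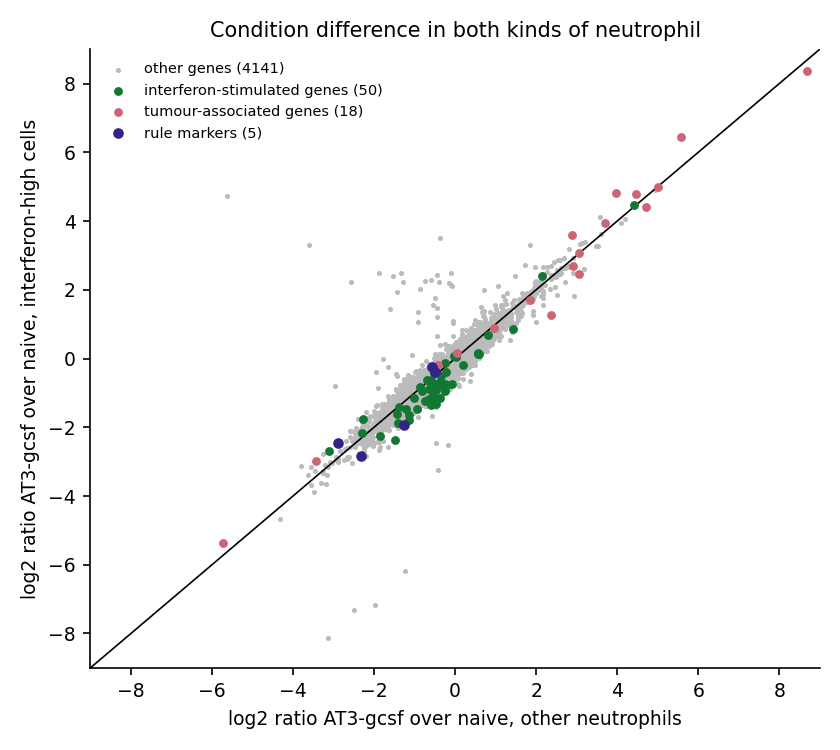
Log2 ratio of AT3-gcsf over naive for 4209 genes measured in interferon-high cells and the 5 rule genes, in interferon-high cells (vertical) and in the other neutrophils (horizontal), with the line of equality. Tumour-associated genes such as Saa3 (8.37 and 8.68) lie on the line, and 50 genes lie at least 1 from it, 19 when the mixed cells are left out.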

How the data were processed

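Whole-number UMI counts per gene and barcode were deposited for 3 gene expression libraries, with hashtag counts deposited in separate files for the same barcodes. Cell Ranger 4.0.0, bcl2fastq 2.20.0.422 and the build mm10 are named in the submitters' processing notes; the sources used here do not give the program that counted hashtags, how barcodes were called as cells or whether doublets were removed.

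Cells were selected by the rule in the opening, and the members, gene lists and comparisons were chosen with earlier results of these data known. Counts were summed over cells of a library or tagged population and scaled to CPM. Log2 ratios had 5 CPM added, which understates ratios of low genes, and a gene was measured at 20 CPM or more in the higher sum. Genes at or beyond a log2 ratio of 1 were counted, without a test, since each condition was 1 library; the rule genes stayed out of these counts. Cells were thinned to 2000 or 1000 UMIs by random draws without replacement. Intervals were exact Poisson or Clopper-Pearson intervals at 95% and cover counting error only; UMIs were counted, and the depth per cell is given with the results. The text names the rule genes, members of the 14 gene lists by role, and the genes with the highest and lowest ratios of each comparison whose 9 pairs of populations all had the same direction; others were named after their values were seen. Doublets were not removed; Scrublet (in scanpy 1.11.5) marked 4, 34 and 7 of the selected cells, and an alternative left them out. Selection was checked against 9 lists of cell type markers. TMM factors came from edgeR 4.0.16 in R 4.3.3, other steps from Python 3.11.15 with numpy 2.4.6, scipy 1.17.1 and pandas 2.3.3. Log2 ratios were tested on simulated data with known changes. Alternatives that leave out cells with other cell types' transcripts, and gene counts with markers at 0.1% of UMIs, were added after seeing the data. Promoter sequences were taken from RefSeq (GRCm38.p6) and gene positions from the GENCODE annotation of GRCm38.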

Additional observations from a re-analysis of the deposited data

Results flagged for a closer look

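Transcripts of the 5 rule genes were also found in cells that the rule left out, above the 3 cells that a count of 0 allows. Among cells rich in the granule genes Camp, Ltf and Ngp, 36 of 828 naive cells (4.35%) and 75 of 616 AT3 cells (12.2%) had 4 or more marker UMIs, while AT3-gcsf had 3 of 158 (1.90%), which is not above that limit. Among cells low in S100a8 and S100a9, 34 of 381 naive cells (8.92%), 29 of 192 AT3 cells (15.1%) and 9 of 126 AT3-gcsf cells (7.14%) had 4 or more. The granule-rich cells were deep, with median counts of 8997, 17429 and 24312 UMIs, and at 1000 UMIs their shares with 2 or more marker UMIs were 1.33%, 1.46% and 0.633%. For the S100-low cells these were 5.29%, 7.33% and 0.806%. What part of these counts is free RNA, doublets or cells' own transcripts was not tested.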

How the results depend on the processing

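No paired analysis was possible because each condition was 1 library and no test was made. Counts are of genes at least 2-fold apart, and values below follow the order in which they are named.

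For AT3 against naive, 107 higher and 466 lower genes became 234 and 110 with TMM scaling, 251 and 265 without the 20 most abundant genes in the totals, and 62 and 191 with 20 CPM added. The higher genes were 70 at a 50 CPM minimum, 179 with no minimum and 167 in thinned cells. Leaving out 1 population at a time gave 106 to 196 higher and 329 to 666 lower. For AT3-gcsf against naive, 260 higher and 1156 lower became 429 and 622 with TMM, 170 and 647 with 20 CPM added and 146 and 762 at a 50 CPM minimum. The higher genes were 551 without the 20 most abundant genes, 431 with no minimum and 568 in thinned cells. Leaving out a population gave 248 to 317 and 1007 to 1262. For AT3-gcsf against AT3, 88 higher and 77 lower became 158 and 117 without the 20 most abundant genes, 48 and 29 with 20 CPM added and 439 and 529 in thinned cells. The higher were 46 at a 50 CPM minimum and 140 with no minimum, and the lower 131 at 8 marker UMIs, 118 with 1 CPM added and 166 with markers at 0.1% of UMIs. Leaving out a population gave 86 to 231 and 77 to 270.

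Genes whose condition difference was 2-fold apart between selected and other neutrophils were 16 for AT3 against naive. They were 29 at 6 and 80 at 8 marker UMIs, 50 without the 20 most abundant genes, 29 with 1 and 9 with 20 CPM added, 5 at a 50 CPM minimum, 101 with none, 95 in thinned cells and 8 without mixed cells, with 14 to 34 when a population was left out. The 50 of AT3-gcsf against naive were 31 at 3 marker UMIs, 110 without the 20 most abundant genes, 30 with 20 CPM added, 17 at 50 CPM, 205 with no minimum, 30 with populations weighted equally, 729 in thinned cells, 19 without mixed cells and 31 with markers at 0.1%, with 25 to 68 when a population was left out. The 30 of AT3-gcsf against AT3 were 16 at 3 and 52 at 8 marker UMIs, 67 without the 20 most abundant genes, 16 with 20 CPM added, 13 at 50 CPM, 81 with no minimum, 17 with equal weights, 607 in thinned cells and 11 without mixed cells, with 28 to 45 when a population was left out.

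Against the other neutrophils, the 67 higher genes of AT3 were 39 at a 50 CPM minimum and 111 in thinned cells, and the 81 of AT3-gcsf 34 and 353. Lower genes were 4, 0 and 1 at 50 CPM in naive, AT3 and AT3-gcsf and 22, 11 and 251 in thinned cells. In naive they were 3 without mixed cells, and in AT3 1 with 1 CPM added and 1 against cells with 0 marker UMIs. Leaving out a population gave 80 to 89, 57 to 75 and 56 to 99 higher and 5 to 14, 0 and 1 to 6 lower.

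The shares of 10.0%, 13.7% and 3.55% were 13.5%, 18% and 5.13% at 3 marker UMIs, 6.11%, 8.76% and 1.92% at 6, 4.44%, 6.05% and 1.26% at 8, 6.67%, 5.48% and 0.719% at 2000 UMIs, 9.01%, 7.42% and 1.06% at 1000 UMIs and 12.3%, 9.77% and 1.31% with markers at 0.1%. Leaving out a population gave 8.49% to 10.6%, 12.9% to 15.4% and 3.15% to 3.99%. Of 10750 recomputed ratios of 100 genes, 10093 moved by less than the spread between populations and 656 by more, but in thinned cells alone 288 of 562 moved by more. Of ratios at least 2-fold in size, only Thbs1 changed direction under these settings, from -1.37 in AT3-gcsf against AT3 to 1.96 without AT3 MHTO8; leaving out a population gave -4.26 to 1.96. Ratios under 2-fold changed sign more often: without AT3 MHTO8, Cxcl2 in that comparison went from -0.24 to 4.26 and Il1b from -0.53 to 1.47, and without naive MHTO3 Ifit3 in AT3 against naive went from -0.49 to 0.32. Thinned cells rest on 70 AT3-gcsf members of 2000 UMIs each, and a gene at 20 CPM there stands on about 3 counts. The causes of these shifts were not tested.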

Other observations

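Some transcripts that would stand out in the selected cells were carried by single cells. Iigp1, an interferon-induced GTPase gene, had 102 UMIs in 5 AT3 selected cells, and 1 cell held 53.9% of them. In AT3-gcsf 1 cell held 58.8%. Csf2, the gene of the growth factor GM-CSF, was singled out after its values were seen: 50 UMIs lay in 2 naive selected cells, and 1 cell held 98.0%. Sftpc, which lung epithelium makes, was held to 94.2% by 1 AT3 cell and to 99.8% by 1 AT3-gcsf cell. A separate observation is Nos2, the inducible nitric oxide synthase gene. It was at 0 UMIs in naive selected cells, 10.9 CPM in AT3 and 47.5 CPM in AT3-gcsf. It did not set the selected cells apart in AT3-gcsf, where its log2 ratio to the other neutrophils was 0.08.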
